A study of Homo sapiens with 9 samples.

Results

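seCLIP peaks of DHX34 were examined where they lay inside introns other than the first intron of a protein-coding gene and close to an exon. A peak was taken when it lay wholly inside the gene, overlapped no exon of any of its transcripts, lay wholly inside an intron after the first of its MANE Select (otherwise Ensembl canonical) transcript, and had an edge at most 2000 nt from the nearest exon of any transcript. Of the 2261 peaks in the deposited list, 410 met this rule (18.1%, 95% Wilson interval 16.6 to 19.8%), and they lay in 385 host genes. They are called exon-proximal peaks here. A further 433 later-intron peaks lay beyond the limit (deep peaks) and 398 lay in first introns, and these were the 2 classes most like them. The limit on distance, the place in a later intron and the absence of exon overlap were set by the rule and are described without a test. Which of the 2 exons was nearest was not set by the rule and was tested. Distance also served to divide the peaks at 500 nt for some tests of other measures.

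HEK293T is a line of human embryonic kidney cells. The 5 DHX34 libraries came from anti-GFP immunoprecipitates of UV-crosslinked HEK293T cells of 1 clone (A5), in which the endogenous DHX34 gene carried GFP and FLAG tags at its C-terminal end. The 4 control libraries came from UV-crosslinked HEK293T cells without a tag, and their labels name both anti-GFP and an input, so that they were taken as inputs of the untagged cells and not as immunoprecipitates. The list of peaks holds a position and 1 whole number for each peak and no value for any library, so that no spread between replicates, no read depth and no strand could be given for a peak, and the intervals and tests below cover the spread over peaks only.

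DHX34 is a DExD/H-box RNA helicase with known roles in nonsense-mediated decay, and helicases of this family remodel RNA and RNA-protein complexes by the use of ATP. Introns of a pre-mRNA nearly always begin with GT and end with AG in the DNA sequence, and the intron sequence beside each splice site holds elements that splicing factors and small nuclear RNPs recognise. Some introns also hold genes for small RNAs that are released from the host transcript.

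The peaks that lay nearest to an exon show how close to a splice site the list reaches. They are printed on the strand of the host gene from 5′ to 3′, on GRCh38, with the first 2 bases of the intron in capitals where the exon was upstream and the last 2 where it was downstream. Bases between a downstream exon and the peak were added to reach the end of the intron.
ANP32E, chr1:150228970-150229071, minus strand: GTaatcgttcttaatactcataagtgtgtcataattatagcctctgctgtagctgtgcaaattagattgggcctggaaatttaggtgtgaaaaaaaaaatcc
PRRC2B, chr9:131478620-131478744, plus strand: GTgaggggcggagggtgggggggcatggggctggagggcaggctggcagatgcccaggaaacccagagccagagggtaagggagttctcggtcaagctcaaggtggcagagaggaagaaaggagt
FBXO24, chr7:100600425-100600533, plus strand: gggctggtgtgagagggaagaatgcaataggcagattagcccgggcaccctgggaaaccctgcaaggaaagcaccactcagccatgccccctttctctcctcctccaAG
SLC22A17, chr14:23347732-23347844, minus strand: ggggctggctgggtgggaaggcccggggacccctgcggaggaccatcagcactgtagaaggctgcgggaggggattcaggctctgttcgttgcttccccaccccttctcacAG
SEC16A, chr9:136463133-136463316, minus strand: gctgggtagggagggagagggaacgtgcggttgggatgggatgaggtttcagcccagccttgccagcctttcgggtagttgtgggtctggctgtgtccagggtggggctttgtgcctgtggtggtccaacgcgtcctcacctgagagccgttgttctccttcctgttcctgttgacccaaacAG
At a distance of 1 nt, 3 peaks began at the first base of the intron, and those in ANP32E (a histone H2A.Z chaperone) and PRRC2B are printed. The peak in TSC1, a negative regulator of mTORC1, followed at 4 nt, from an exon edge that is not in its chosen transcript. The peak in UBE2D2, a ubiquitin-conjugating enzyme, lay at 7 nt. On the other side, the peaks in FBXO24 (an F-box protein) and HAUS6 (an augmin subunit of the mitotic spindle) ended 9 nt before an exon. The peaks in EXD3 and SLC22A17 (a receptor for lipocalin) ended 12 nt before the next exon, and that in SEC16A, which acts at ER exit sites, 15 nt before it.

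The next set shows the range of guanine at the 5′ edge of the peaks, with positions 6 to 15 from the 5′ edge in capitals.
CIC, chr19:42286382-42286492, plus strand: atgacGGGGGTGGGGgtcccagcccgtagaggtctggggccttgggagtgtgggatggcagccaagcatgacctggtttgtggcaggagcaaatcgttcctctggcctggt
CPEB2, chr4:15017704-15017807, plus strand: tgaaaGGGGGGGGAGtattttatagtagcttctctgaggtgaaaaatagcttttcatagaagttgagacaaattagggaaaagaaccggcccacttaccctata
STX8, chr17:9438225-9438326, minus strand: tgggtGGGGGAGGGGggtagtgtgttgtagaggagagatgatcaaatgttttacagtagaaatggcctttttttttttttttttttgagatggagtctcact
MLH3, chr14:75033565-75033666, minus strand: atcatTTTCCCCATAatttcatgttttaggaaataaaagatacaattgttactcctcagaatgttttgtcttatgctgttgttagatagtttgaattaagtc
SCAF4, chr21:31705804-31705906, minus strand: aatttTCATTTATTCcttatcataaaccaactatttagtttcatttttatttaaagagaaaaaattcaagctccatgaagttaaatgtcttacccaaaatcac
CIC (a transcriptional repressor), CPEB2 (a regulator of cytoplasmic polyadenylation) and STX8 (a syntaxin of endosomes) held 9 G in these 10 bases, the highest number among the 410 peaks. LAMA5, a laminin chain, and PRRC2B held 8. The 13 peaks without a G there (3.17%) included those in MLH3, a mismatch repair protein, SCAF4, which binds the tail of RNA polymerase II, and MBTD1, a reader of methylated histones.

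The third set shows 6 of the 8 peaks whose fourth-column value was above 1, again with positions 6 to 15 in capitals.
ATG16L1, chr2:233275865-233275994, plus strand: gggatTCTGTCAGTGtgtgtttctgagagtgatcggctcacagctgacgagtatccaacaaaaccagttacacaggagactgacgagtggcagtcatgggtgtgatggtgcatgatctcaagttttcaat
HAUS6, chr9:19063589-19063690, minus strand: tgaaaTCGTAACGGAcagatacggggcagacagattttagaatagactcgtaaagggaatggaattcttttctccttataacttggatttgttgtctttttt
ATAD5, chr17:30856808-30856934, plus strand: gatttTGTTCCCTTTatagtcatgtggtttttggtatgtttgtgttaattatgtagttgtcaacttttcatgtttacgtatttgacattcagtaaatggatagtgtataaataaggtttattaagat
FOXK2, chr17:82586229-82586492, plus strand: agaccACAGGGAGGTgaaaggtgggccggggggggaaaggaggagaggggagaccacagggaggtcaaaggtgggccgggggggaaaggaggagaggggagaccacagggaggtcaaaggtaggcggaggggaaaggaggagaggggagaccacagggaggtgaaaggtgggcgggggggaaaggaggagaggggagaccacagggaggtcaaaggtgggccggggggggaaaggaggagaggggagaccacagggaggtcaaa
SPG7, chr16:89536517-89536747, plus strand: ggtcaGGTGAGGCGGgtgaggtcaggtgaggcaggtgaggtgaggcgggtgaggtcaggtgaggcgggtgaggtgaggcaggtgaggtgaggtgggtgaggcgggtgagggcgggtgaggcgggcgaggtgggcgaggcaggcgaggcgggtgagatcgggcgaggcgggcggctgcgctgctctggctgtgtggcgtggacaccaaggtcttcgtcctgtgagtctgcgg
TMEM241, chr18:23307851-23307973, minus strand: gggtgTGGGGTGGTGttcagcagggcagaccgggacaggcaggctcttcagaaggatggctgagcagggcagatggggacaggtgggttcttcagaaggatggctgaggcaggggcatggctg

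The exon-proximal peaks were narrow and spread over many genes. Their width ran from 100 to 581 nt with a median of 103 nt, and 341 (83.2%) were at most 110 nt wide. Their distance from an exon ran from 1 to 1979 nt, with a median of 460 nt and quartiles of 151.25 and 929 nt. For 304 peaks (74.1%) the nearest exon edge belonged to the chosen transcript, and for the others to another transcript of the gene. The host introns measured 159 to 397263 nt, with a median of 4261 nt, against medians of 40196 nt for deep peaks and 38812 nt for first introns, which the distance rule itself favours. The median peak lay in intron 7 of its transcript, and 34 peaks (8.29%) lay in the last intron. There were peaks on chromosome X and on all autosomes, with 38 on chromosome 1 and 5 on chromosome 21. A gene on the other strand was annotated under 37 peaks (9.02%), and 34 lay inside more than 1 protein-coding gene.

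Near the 2000 nt limit, the last peaks inside it were those of RTTN at 1942 nt, CELF1 at 1957 nt, GCNT2 at 1958 nt, ZNF423 at 1976 nt and KLHL22 at 1979 nt. For GCNT2, ZNF423 and KLHL22 the exon edge is not in the chosen transcript. The first peaks beyond the limit follow. They were those of KIF18A at 2002 nt, ADAMTS17 at 2011 nt, DOCK3 at 2020 nt, TLE1 at 2032 nt and GLIS1 at 2048 nt.

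The upstream and the downstream exon were nearest about equally often. The upstream exon was nearest for 207 of 409 peaks (50.6%), with 1 peak midway left out (two-sided exact binomial test against an even split, p = 0.843, Benjamini-Hochberg adjusted p = 0.885 over 21 tests). Among deep peaks the upstream exon was nearest for 53.3%, and among first-intron peaks for 60.6%. The difference from first-intron peaks was -9.94 percentage points (95% interval -16.7 to -3.08, two-sided Fisher's exact test, p = 0.0047), which did not pass the threshold after adjustment (adjusted p = 0.0905). Within 50 nt, 25 peaks lay downstream of an exon and 18 upstream of one.

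**Figure D1:**
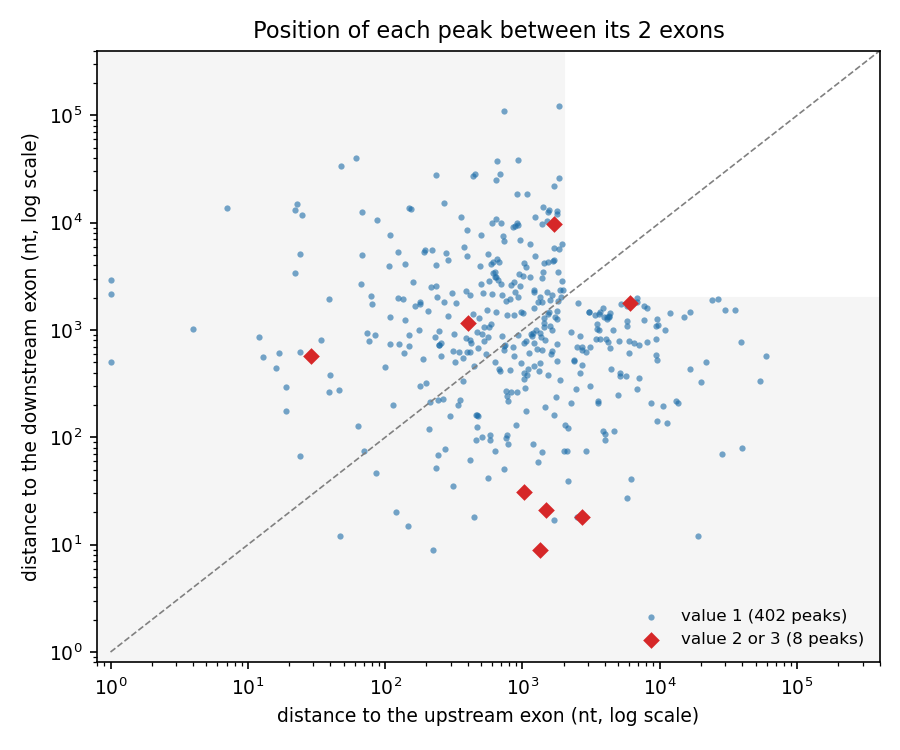
Distance of each exon-proximal peak to the upstream exon (horizontal axis, nt, log scale) and to the downstream exon (vertical axis, nt, log scale), with the 402 peaks of value 1 as points and the 8 peaks of value 2 or 3 as diamonds. The shaded area is the part of the plane within 2000 nt of an exon, the dashed line marks equal distances, and 207 of 409 peaks lie above it, nearer to the upstream exon.

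Some peaks covered much of a short intron. The peak covered a median of 2.59% of its intron. In SLC22A17 it covered 64.2% of the 159 nt intron 7, at a distance of 47 nt from the upstream and 12 nt from the downstream exon. In SLC26A6, an anion exchanger, the peak covered 53.2% of a 190 nt intron. The peak in HTT (huntingtin) covered 42.5% of the 240 nt intron 15, and lay 20 nt from the next exon. Those in SPDYC, a Cdk activator, and VILL, a villin-like protein, covered 41.8% of 244 nt and 34.9% of 295 nt.

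The density of peaks was also set against the length of intron available, as a description without a test, since the rule used the distance. With each later-intron peak placed by its midpoint, and all 16810 protein-coding genes with at least 3 exons as the base, there were 2.38 peaks per Mb (exact 95% Poisson interval 1.63 to 3.36) at 61 to 150 nt downstream of an exon and 2.31 (1.57 to 3.28) at 61 to 150 nt upstream of one. At 1001 to 2000 nt these values were 0.838 and 0.895 peaks per Mb. Over both sides there were 1.71 peaks per Mb (1.48 to 1.97, 191 peaks) at 61 to 500 nt, 1.06 (0.917 to 1.22, 201 peaks) at 501 to 2000 nt and 0.948 (0.861 to 1.04, 433 peaks) beyond 2000 nt. The authors removed reads in transposable elements, which thins peaks from repeat-rich intron sequence, and the part of repeats in these densities was not tested. Expression of the genes was not measured in these data, so that the densities are not corrected for it.

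**Figure D2:**
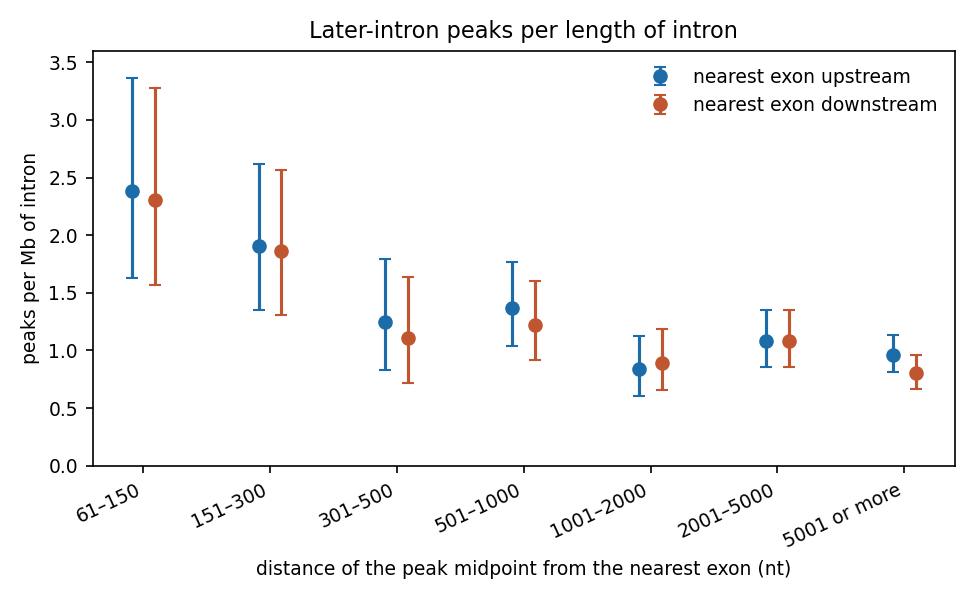
Later-intron peaks per Mb of intron (vertical axis) against the distance of the peak midpoint from the nearest exon (horizontal axis, nt, in bins), for peaks nearest to the upstream exon and to the downstream exon, with exact 95% Poisson intervals as bars. Both sides start near 2.3 to 2.4 peaks per Mb at 61 to 150 nt and stand between 0.8 and 1.1 beyond 1000 nt.

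Guanine was frequent just inside the 5′ edge of the exon-proximal peaks. G made up 24.8% of the bases at 100 to 51 nt before the edge, 32.9% at positions 1 to 5, 38.8% at positions 6 to 15, 31.8% at positions 16 to 30 and 24.5% at positions 61 to 100. The highest share, 43.4%, was at position 8. T stood at 20.7% and A at 22.4% over positions 6 to 15, below the 27.2% and 26.2% at 100 to 51 nt before the edge. Deep peaks had 37.5% G at positions 6 to 15 and first-intron peaks 39.2%.

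**Figure D3:**
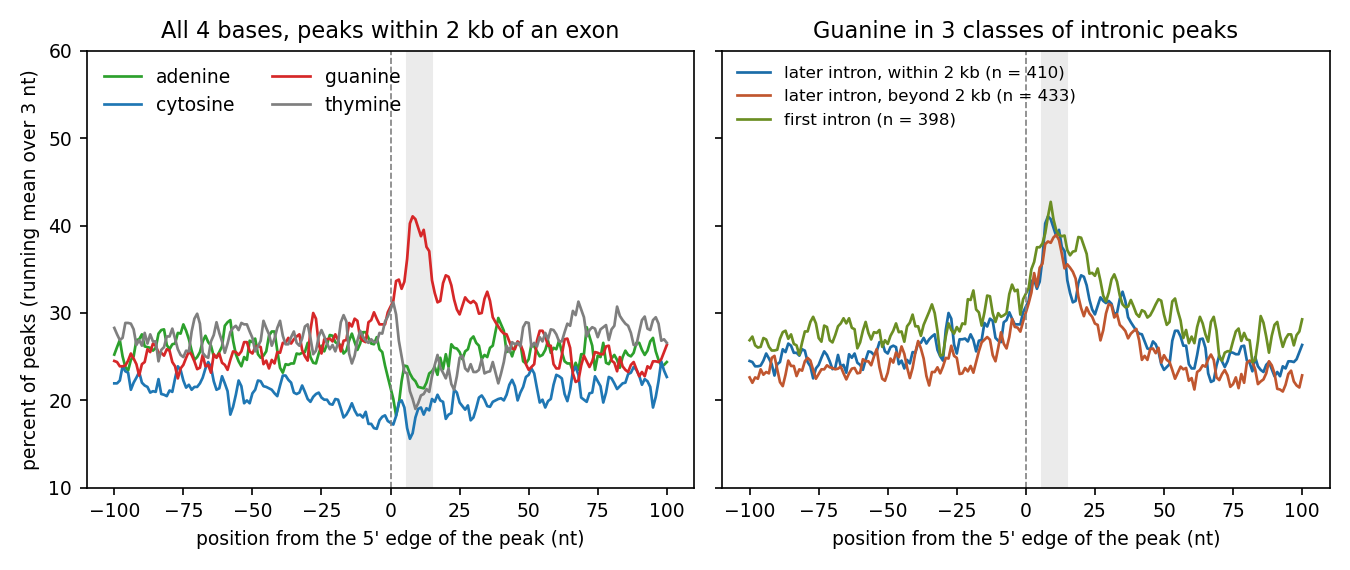
Left, percent of the 410 exon-proximal peaks with each base, as a running mean over 3 nt (vertical axis), against the position from the 5′ edge on the strand of the host gene (horizontal axis, nt). Right, the same for guanine in exon-proximal, deep and first-intron peaks. The dashed line is the edge and the shading marks positions 6 to 15, where guanine stands at 38.8% in the exon-proximal peaks.

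A 5′ edge was called G-rich when at least 5 of the 10 bases at positions 6 to 15 were G. On the strand of the host gene 148 of the 410 peaks (36.1%, 31.6 to 40.9%) had a G-rich edge, and the same measure read from the other end on the opposite strand was met by 45 (95% interval 8.30 to 14.4%). Of these peaks 132 were G-rich on the gene strand only, 29 on the other strand only, 16 on both and 233 on neither. Where genes were annotated on both strands, 12 of 37 peaks (19.6 to 48.5%) were G-rich on the strand of the assigned host. On the other strand 10 were (15.4 to 43.0%), and with so few peaks these intervals are wide. For the other 373 peaks the counts were 136 and 35.

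For comparison, the intron sequence within 2000 nt of an exon in the same host genes was cut into 144536 windows of 100 nt without a peak, which describes the base composition available there. A G-rich edge was found in 8.56% of the windows against 36.1% of the peaks, a ratio of 4.22. On the opposite strand these shares were 7.82% and, over the first 100 nt of the peaks, 11.2%. The hexamer GGAGGG, searched on the gene strand, was present in the first 100 nt of 15.4% of the peaks and in 3.75% of the windows. The run GGGG, which can overlap that hexamer only in part, was present in 53.7% and 21.7%. GTAAGT, the common start of an intron, was present in 2.20% of the peaks and 2.16% of the windows. The rule leaves out peaks that overlap an exon, so that no peak across an exon-intron boundary is counted here. Of peaks across such a boundary, 21 of 259 (8.11%) held GTAAGT over their whole width. TTTTT was rarer in the exon-proximal peaks than in the windows, at 14.6% against 29.5%. GC of 50% or more was found in 49.8% of the peaks and 29.8% of the windows. No test was made of these shares, since peaks and windows come from the same introns and windows may lie in sequence from which reads were removed.

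**Figure D4:**
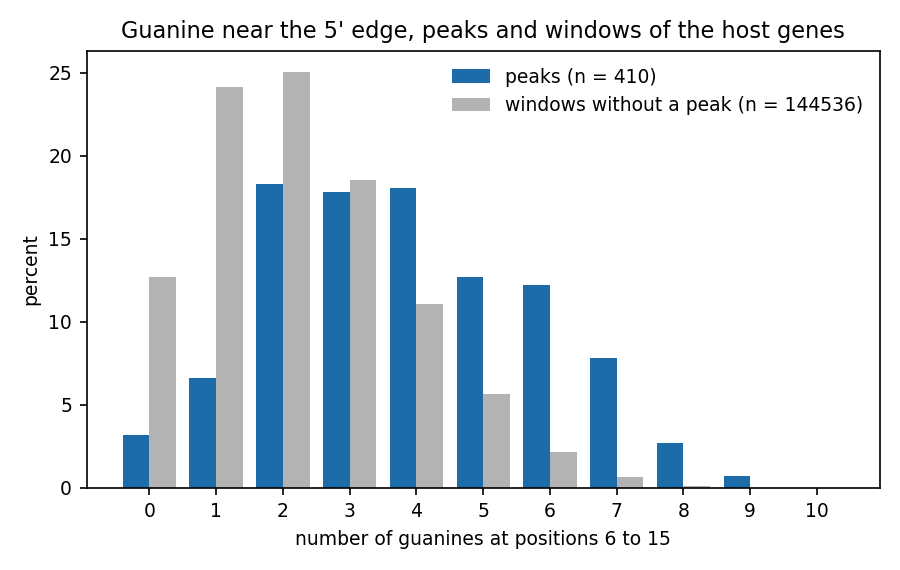
Percent (vertical axis) of the 410 exon-proximal peaks and of 144536 windows of 100 nt without a peak, from the same host genes, by the number of guanines at positions 6 to 15 (horizontal axis). No guanine was found in 3.17% of the peaks and 12.7% of the windows, and 9 in 3 of the peaks.

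Deep peaks and exon-proximal peaks did not differ detectably in guanine. A G-rich edge was found in 36.1% of exon-proximal and 35.3% of deep peaks, a difference of 0.763 percentage points (95% interval -5.68 to 7.21, Fisher's exact test, adjusted p = 0.885). Over the whole peak, with Fisher's exact test for each, GGAGGG was found in 17.3% and 14.1% (adjusted p = 0.381), GGGG in 54.9% and 50.3% (adjusted p = 0.381), TTTTT in 17.1% and 21.2% (adjusted p = 0.381) and GTAAGT in 2.20% and 2.31% (adjusted p = 1). GC of 50% or more was found in 48.3% of exon-proximal and 40.2% of deep peaks, a difference of 8.11 percentage points (1.40 to 14.7, Fisher's exact test, p = 0.0185, adjusted p = 0.0905). Peaks wider than 110 nt made up 16.8% and 11.1%, a difference of 5.74 percentage points (1.07 to 10.5, Fisher's exact test, p = 0.0169, adjusted p = 0.0905).

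Against first-intron peaks the exon-proximal peaks had the lower shares of G and GC, though none of these differences passed after adjustment. A G-rich edge was found in 36.1% against 44.2%, a difference of -8.12 percentage points (-14.8 to -1.36, Fisher's exact test, p = 0.0215, adjusted p = 0.0905). GC of 50% or more was found in 48.3% against 56.5%, a difference of -8.24 percentage points (-15.0 to -1.35, Fisher's exact test, p = 0.0202, adjusted p = 0.0905). GGAGGG stood at 17.3% against 20.9%, GGGG at 54.9% against 59.5% and peaks wider than 110 nt at 16.8% against 20.4% (Fisher's exact test, adjusted p = 0.381 for each). None of the 21 tests passed an adjusted p of 0.05.

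**Figure D5:**
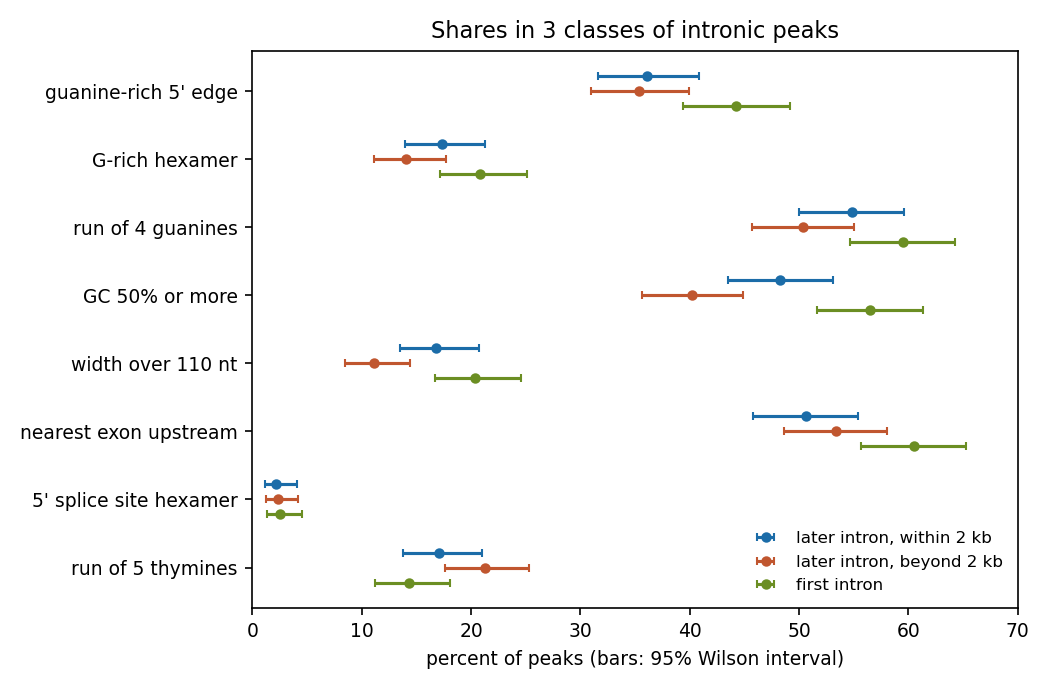
Percent of peaks (horizontal axis, with 95% Wilson intervals as bars) that met each of 8 measures (vertical axis) in exon-proximal, deep and first-intron peaks. Exon-proximal and deep peaks stood at 36.1% and 35.3% for the guanine-rich 5′ edge, and at 48.3% and 40.2% for GC of 50% or more. Neither difference passed after adjustment.

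The share of G-rich edges was also read by distance among the exon-proximal peaks. Of the 43 peaks within 50 nt of an exon, 22 (51.2%, 36.8 to 65.4%) had a G-rich edge, as in PRRC2B and in SEC16A, FBXO24 and SLC22A17 on the other side of the intron. Those just after an exon counted 14 of 25 and those just before one 8 of 18. In peaks just before an exon the 5′ edge is the end away from that exon, so that the counted bases do not lie beside it. FBXO24 held 6 G at positions 6 to 15 and also 6 by the same measure on the opposite strand, where PCOLCE-AS1 is annotated. At 51 to 100 nt the share was 7 of 33 (21.2%, 10.7 to 37.8%), and in the farther ranges it lay between 28.8% and 40.7%. The intervals of the first and the second of these bins overlapped narrowly. Such an overlap does not show that the shares are alike, and no test was made between them. GC of 50% or more was found in 53.0% of the peaks within 500 nt and 43.1% of the others, a difference of 9.95 percentage points (0.268 to 19.4, Fisher's exact test, p = 0.0482, adjusted p = 0.169). A G-rich edge was found in 38.1% and 33.8% of them (Fisher's exact test, adjusted p = 0.616). ANP32E held 1 G at positions 6 to 15 and PRRC2B held 8, although both peaks began at the splice site.

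A value above 1 in the fourth column, whose meaning the authors do not state, was given to 8 of the 410 peaks (1.95%) to 2 of the 433 deep peaks (0.462%), to 10 of the 398 first-intron peaks (2.51%), to 3.86% of peaks across an exon-intron boundary and to 3.58% of exonic peaks that cross none. Of these 8, 5 lay within 50 nt of an exon, against 38 of the 402 peaks of value 1 (9.45%), and 7 were wider than 110 nt, against 62 of 402 (15.4%). The only value of 3 was in ATG16L1, an autophagy protein, where the peak of 130 nt in intron 9 of 17 lay inside the gene of SCARNA5, a small RNA of the class that guides modification of small nuclear RNAs in Cajal bodies, and 398 nt after an exon. The 102 nt peak in HAUS6 overlapped SCARNA8, of the same class. In FOXK2, a forkhead transcription factor, the peak of 264 nt began 29 nt after an exon and covered 30.6% of the 862 nt intron. In SPG7, a mitochondrial protease, the peak of 231 nt ended 18 nt before an exon. For the peaks in SPG7 and ATG16L1 the nearest exon edge is not in the chosen transcript. In ATAD5, which unloads PCNA from DNA, the peak of 127 nt ended 21 nt before an exon and had a GC content of 27.6%. In ARHGAP45, a GTPase-activating protein, it was 250 nt wide, in the last intron, 31 nt before the exon. The peaks in TMEM241 (123 nt) and PNPLA7, a lysophospholipase (435 nt), lay 1707 and 1798 nt from an exon.

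An annotated short noncoding RNA gene was overlapped by 6 of the 410 peaks (1.46%), and these were looked up after their values were seen. The share over the whole list was not counted, so that this is not called few or many. Besides SCARNA5 and SCARNA8 the RNA genes were SNORA2C with MIR1291 in KANSL2, MIR4782 in SLC35F5, MIR942 in TTF2 and an unnamed RNA on the other strand in TTC28. The 5 peaks with an RNA gene on the host strand each began inside that gene, 38 nt from its 5′ end for MIR4782, 40 nt for MIR942, 41 nt for SNORA2C, 96 nt for SCARNA8 and 138 nt for SCARNA5. All but the SCARNA5 peak ran on past its 3′ end, by 47 nt for SNORA2C, 61 nt for MIR4782, 63 nt for MIR942 and 67 nt for SCARNA8.

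Most host genes held 1 exon-proximal peak, and 24 of 385 (6.23%) held more. MED16, a Mediator subunit, had 2 in intron 9, which began 359 nt apart, and CIC had 2 in intron 2, which began 9999 nt apart. HTT had 1 in intron 15 and 1 in intron 52 of 66, 87619 nt apart. ABCC1 (a drug exporter), CPEB2, EPB41L2, GPT2 (alanine aminotransferase of mitochondria), HIP1R and MYO18A also had 2 each, in 2 introns. A peak of another class was found in the host genes of 69 of the 410 peaks (16.8%), and 22 host genes also held a deep peak, 15 a boundary peak, 12 a first-intron peak and 10 an exonic peak.

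Over all 16810 protein-coding genes with at least 3 exons, 380 (2.26%) held an exon-proximal peak. Of the matched genes on a list of chromatin modifiers 10 of 93 did (10.8%, 5.95 to 18.7%), among them EP400 and TRRAP of the NuA4 complex, the acetyltransferases KAT6B and KAT7, the deacetylase HDAC4, the demethylase KDM2B, the remodellers CHD9 and SMARCC2, and BRD1. Such genes are long near their exons, with a median of 33690 nt of later intron within 2000 nt of an exon, against 11095 nt for all genes and 29241 nt for host genes. Per Mb of such sequence, the list held 3.34 peaks (1.78 to 5.72, 13 peaks) and all genes 1.26 (1.14 to 1.38, 405 peaks). In this list TRRAP had a peak 42 nt before an exon and another 80 nt after one, and SMARCC2 had one 40 nt after an exon. KAT6B had one 575 nt before an exon edge that is not in its chosen transcript, in an intron of 116491 nt of that transcript.

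Of ubiquitin ligases and deubiquitinases 7 of 70 held a peak (10.0%; CUL4B, MDM2, MYCBP2, TRAF3, UBR2, USP13 and USP24), or 1.79 per Mb (0.719 to 3.68). The peak in USP13 lay 16 nt from an exon edge that is not in its chosen transcript, and that in UBR2 held 8 G at positions 6 to 15. Of DExD/H-box helicases, the family of DHX34, 3 of 61 did (4.92%), among them DHX30 and DHX37, with the peak of DHX37 at 75 nt from an exon. Of genes mutated in myeloid leukaemia or myelodysplasia 3 of 53 did (5.66%): BCOR, a corepressor, PTPN11, a tyrosine phosphatase, and SMC1A, a cohesin subunit. Their peaks lay 217, 628 and 227 nt from an exon. Of factors of nonsense-mediated decay and the exon junction complex 1 of 29 did, UPF3A, at 756 nt. Of actin and myosin genes 2 of 61 did, MYO18A and MYO7A. Of spliceosome genes and splicing regulators 1 of 114 did (0.877%), CELF1, or 0.483 per Mb (0.0122 to 2.69). The intervals per Mb of the lists in this paragraph included the value over all genes. Neither these intervals nor that of chromatin modifiers are adjusted for the number of lists, for expression or for peaks that share a gene. The lists were chosen with earlier results known and were not tested for enrichment, so that none is called enriched.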

How the data were processed

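The members, gene lists, tests and named genes were chosen with earlier results of these data known. As the study's methods describe, the authors trimmed reads (cutadapt), handled molecular identifiers (umi_tools), aligned to GRCh38 (bowtie2), removed duplicates and reads in transposable elements, and called peaks (macs2) per tagged library and on merged libraries against merged controls. The deposited list was taken as the union of these calls. The authors later kept only part of their peaks by read support and specificity of mapping. The list does not mark that selection, so that many of the peaks described may lie outside it. Its coordinates carry no strand, and its last column, deposited as whole numbers with no stated meaning, was treated as a score. Reads extended to a fixed length set the peak widths, which lie near 100 nt, and unspliced alignment loses reads across exon junctions.

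Peaks were placed against GENCODE release 44 and read from GRCh38 on the host gene strand, with starts counted from 1. A distance of 1 nt means that the peak adjoins the exon. Shares were compared with two-sided Fisher's exact tests, adjusted by Benjamini-Hochberg over 21 tests (both with scipy 1.17.1). Differences were given Newcombe intervals (statsmodels 0.14.6), and single values Wilson or exact Poisson intervals. Peaks share genes and are not replicates. The scripts were tested on simulated data (Python 3.11.15). Named were peaks of value 2 or more, the first 10 hosts with several peaks, the 5 nearest an exon on each side, the 5 on each side of the limit, the 5 with the most and the 3 with the fewest G, the 5 in the shortest introns, and hosts on the lists. A few items that this rule would name are not reported here.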

Additional observations from a re-analysis of the deposited data

How the results depend on the processing

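The tests were repeated with 1 peak per host gene, without peaks under genes on both strands, with peaks of at most 110 nt, with classes set by the midpoint, with a limit of 1000 nt, with exons of the chosen transcript alone, with the first 100 nt, with other limits on G, GC, distance and value, and without repeat-rich peaks. Of 164 values 140 kept direction and side of the threshold, 9 came to pass an adjusted p of 0.05 and 15 changed direction. In percentage points, by Fisher's exact test, those that came to pass with classes by the midpoint were GC against deep peaks (8.66, adjusted p = 0.0492), width against deep peaks (7.34, adjusted p = 0.0403), G-rich edge against first-intron peaks (-8.81, adjusted p = 0.0492) and GC against first-intron peaks (-9.87, adjusted p = 0.0403). GC against deep peaks passed with a GC limit of 55% (10.9, exact test, adjusted p = 0.0151). With the chosen exons alone, GC within 500 nt against the others passed (18.6, exact test, adjusted p = 0.00389). Without repeat-rich peaks (10% or more of 16-mers with over 20 copies in the genome, a limit chosen after the data were seen), GC (13.1, exact test, adjusted p = 0.0146) and width (8.30, adjusted p = 0.0314) against deep peaks and nearest exon upstream against first-intron peaks (-12.7, adjusted p = 0.0146) passed. The planned limit of more than 1 copy was met by all 410 peaks and could not be run.

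None of the values that changed direction passed. GTAAGT against deep peaks turned to 0.416 (1 peak per gene), 0.268 (at most 110 nt), 0.225 (midpoint) and 0.182 (without repeat-rich peaks), and against first-intron peaks to 0.112 (midpoint). G-rich edge against deep peaks turned to -1.01 (at most 110 nt), -0.0375 (midpoint) and -0.959 (limit of 1000 nt), and within 1000 nt against the others to -4.45. Nearest exon upstream against deep peaks turned to 0.179 (midpoint) and 0.426 (chosen exons), and against an even split to -0.325 (without repeat-rich peaks) and -12.5 (3 of 8 peaks of value 2 or more). Width within 500 nt turned to -1.26 (chosen exons), and divided at 300 nt to -4.19. The cause of these changes was not tested. No paired analysis was possible because the list holds no value per library, and for the same reason no replicate could be left out and no depth per peak is known.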

Other observations

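Besides the hexamers above, 3 were counted on the gene strand after the values were seen, without a test. GAGGAG was present in 8.29% of exon-proximal peaks, 14.3% of deep peaks and 11.6% of first-intron peaks, against 26.6% of boundary peaks and 21.2% of exonic peaks. GAAGAA was present in 5.85%, 5.54% and 6.28% of the intronic classes in that order, against 57 of 259 boundary peaks and 14.3% of exonic peaks. GGGGAG was present in 14.9%, 12.7% and 17.6% of the intronic classes, against 14.3% of boundary peaks and 46 of 307 exonic peaks. Peaks also differ in width between these classes.

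Several of the peaks of value 2 or more look repetitive in the printed sequence, so each peak was compared with itself shifted by 6 to 60 nt, and the highest percent of equal bases was taken. The limit of 70% set for a tandem repeat was reached by 0 of the 8 peaks of value 2 or more (upper Wilson bound 32.4%) and by 1 of the 402 peaks of value 1, in MOB1B (78.9%). So few peaks reached the limit that nothing is drawn from these counts. The shift was the same along the whole peak, so that repeat copies of unequal length fall out of step. The measure can therefore miss a repeat, as in FOXK2, where the printed sequence repeats the same unit along its length. Below the limit of 70%, FOXK2 stood at 66.2% at a shift of 48 nt, TMEM241 at 65.8% at 44 nt and SPG7 at 56.3% at 9 nt. ARHGAP45 stood at 46.3% and ATAD5 at 45.5%. All of these lay above the upper quartile of 42.9% over the 410 peaks. HAUS6 at 37.0%, ATG16L1 at 36.0% and PNPLA7 at 34.6% lay below the median of 40%. Both the measure and the limit were chosen after these sequences had been read.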
